A study of Homo sapiens with 9 samples.

Results

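Collagen genes were taken as the protein-coding genes whose GENCODE symbol is COL, a number, A and a number, and 44 of the 60617 gene identifiers in the count files met this rule. They were followed in PC-3, an established human prostate cancer cell line with epithelial features, in 9 RNA-seq libraries. The 3 control libraries came from cells given vehicle, the 3 decitabine libraries from cells given 1 µM of decitabine, and the 3 libraries of the combination treatment from cells given 1 µM of decitabine and 200 µM of S-adenosylmethionine (SAM), all for 5 days. Decitabine is a cytidine analogue that blocks DNA methyltransferases, and SAM is the methyl donor of these enzymes. The study set both agents together to ask whether one undoes the effect of the other. All libraries stem from 1 cell line in culture, and libraries of cells given SAM alone were not analysed here.

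Collagens are secreted or membrane proteins in which 3 chains wind into a triple helix, and each gene encodes 1 chain. Fibrillar collagens assemble into the rope-like fibrils of connective tissue, with types I and III made mainly by fibroblasts and type II by cartilage cells. Type IV collagen forms the sheet-like network of basement membranes beneath epithelia, type VI forms beaded filaments, and type VII anchors epithelia to the tissue below. FACIT collagens (fibril-associated collagens with interrupted triple helices) sit on fibril surfaces, transmembrane collagens span the plasma membrane, and multiplexins are basement-membrane collagens that carry long sugar chains. Many chains assemble with a partner, such as COL1A1 with COL1A2 or COL4A1 with COL4A2.

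The promoters of 6 genes are shown because their genes carry the main patterns described here. COL16A1 and COL9A2, a pair of FACIT chains, rose with both treatments, and COL13A1 and COL17A1, transmembrane collagens, fell with both. COL4A5 and COL4A6 are read in opposite directions from neighbouring starts, and the former fell while the latter rose. The sequences are the 250 bases before each RefSeq transcription start on GRCh38.p14, written 5′ to 3′ along the gene's own strand, with each CpG in capitals. They lie at chr1:31704018-31704267 (COL16A1, minus strand), chr1:40317287-40317536 (COL9A2, minus strand), chr10:69801656-69801905 (COL13A1, plus strand), chr10:104085881-104086130 (COL17A1, minus strand), chrX:108439588-108439837 (COL4A5, plus strand) and chrX:108438423-108438672 (COL4A6, minus strand).
COL16A1: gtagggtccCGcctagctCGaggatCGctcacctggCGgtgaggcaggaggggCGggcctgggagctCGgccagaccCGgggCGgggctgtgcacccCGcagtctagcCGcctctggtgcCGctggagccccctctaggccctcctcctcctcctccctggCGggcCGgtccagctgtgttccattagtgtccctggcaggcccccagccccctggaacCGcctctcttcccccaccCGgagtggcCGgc
COL9A2: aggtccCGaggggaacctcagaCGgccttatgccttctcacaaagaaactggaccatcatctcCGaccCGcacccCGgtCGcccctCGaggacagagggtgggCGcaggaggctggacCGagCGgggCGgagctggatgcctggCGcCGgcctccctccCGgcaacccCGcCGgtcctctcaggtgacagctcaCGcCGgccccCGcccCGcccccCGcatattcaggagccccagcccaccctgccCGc
COL13A1: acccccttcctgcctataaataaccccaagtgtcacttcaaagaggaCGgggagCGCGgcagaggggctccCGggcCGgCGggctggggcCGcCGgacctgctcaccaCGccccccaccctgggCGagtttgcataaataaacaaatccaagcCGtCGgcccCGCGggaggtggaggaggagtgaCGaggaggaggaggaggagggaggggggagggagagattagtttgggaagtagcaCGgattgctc
COL17A1: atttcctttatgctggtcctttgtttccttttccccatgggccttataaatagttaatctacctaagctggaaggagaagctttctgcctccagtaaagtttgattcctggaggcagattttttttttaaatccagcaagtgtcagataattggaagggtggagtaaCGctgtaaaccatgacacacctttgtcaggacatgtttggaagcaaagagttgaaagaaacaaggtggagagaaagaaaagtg
COL4A5: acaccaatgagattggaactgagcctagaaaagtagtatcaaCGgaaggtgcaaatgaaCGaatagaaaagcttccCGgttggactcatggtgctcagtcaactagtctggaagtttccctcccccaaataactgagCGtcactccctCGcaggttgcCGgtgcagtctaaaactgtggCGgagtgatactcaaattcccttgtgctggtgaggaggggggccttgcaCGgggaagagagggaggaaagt
COL4A6: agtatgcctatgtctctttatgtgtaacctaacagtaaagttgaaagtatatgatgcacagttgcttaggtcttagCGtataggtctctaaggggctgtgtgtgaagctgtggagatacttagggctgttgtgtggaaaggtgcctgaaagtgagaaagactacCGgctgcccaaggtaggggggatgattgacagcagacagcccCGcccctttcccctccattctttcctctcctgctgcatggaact

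The COL9A2 stretch held 22 CpGs, those of COL16A1 and COL13A1 held 16 each, and those of COL4A5, COL4A6 and COL17A1 held 8, 3 and 1. Similar CpG counts therefore stood before a gene that rose (COL16A1) and one that fell (COL13A1). RefSeq promoter windows of 300 bases, with 50 bases after the start added, were matched for 32 of the 44 collagen genes. Their median was 23 CpGs, beside 14 over all 35116 windows of the table. The 16 genes with an entry that rose with both treatments had 1 to 45 CpGs (median 17.5), and the 5 that fell with both had 1 to 46 (median 22). The motif CCAAT, searched on both strands, stood in 25.0% of the former and 60.0% of the latter, beside 34.6% of all windows. TATAAA, on both strands, stood in 6.25% and 40%, beside 11.5% of all. Most of the 16 genes had enough counts for a test only with the treated libraries counted in, which tilts them towards a higher level. The 5 genes that fell are few, and no contrast between the sets is drawn. These matches describe letters in the windows only, and the methylation of these windows was not analysed here.

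Of the 44 collagen genes, 35 had enough counts to be tested, and 23 of them had enough in the control libraries alone. The other 12 passed only with the treated libraries counted in, which tilts them towards a higher level there, so they are counted apart. Levels are given in CPM, the count scaled to a common library total, computed from the deposited estimated counts after TMM scaling, which corrects each library for composition. Fold changes and adjusted p-values come from edgeR's quasi-likelihood test fitted to all 18532 genes that passed the filter, with Benjamini-Hochberg adjustment over all of them, and a gene is called at an adjusted p under 0.05. Each library held between 21934307 and 22489684 counts. In bulk RNA, a lower share of cells that express a gene and less RNA per cell cannot be told apart. The sources do not say that the 3 libraries of a group came from separate cultures, so the p-values measure the spread between these libraries, which may be technical.

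Among the 23 collagen genes with enough counts in controls, most of the rare ones rose, and most of the abundant ones fell or held no call. With decitabine, 24 of the 35 were called higher and 5 lower, beside 36.3% and 32.5% of all genes tested. Among the 23 with enough counts in controls, 12 were higher and 5 lower, beside 26.2% and 40.9% of the 14700 genes of that kind. With the combination treatment, 22 were called higher and 9 lower, beside 35.9% and 31.3%, and among the 23 there were 10 higher and 9 lower, beside 26.5% and 39.3%. Of the 7 collagen genes whose control mean reached 1000 counts, 2 were higher and 3 lower under decitabine, and 0 higher and 5 lower under the combination treatment. Of the 8 that passed in controls with under 100 counts, 6 were higher and 1 lower with either treatment. The shares of all genes in the same ranges of counts were not computed, so whether these splits are particular to collagen genes was not tested. The median log2 fold change of the 23 genes was 0.56 under decitabine and 0.36 under the combination treatment, beside -0.13 and -0.12 for all genes with enough counts in controls. The comparisons share the 3 control libraries, so they are not independent of each other. Gene by gene, 22 were called higher with both treatments and 5 lower with both, while COL6A2 and COL12A1 were called higher under decitabine alone and COL5A1, COL5A2, COL6A1 and COL27A1 lower under the combination treatment alone. Of these 6 genes, COL5A2, COL6A1 and COL6A2 were also called between the treatments, while COL5A1 (adjusted p = 0.082), COL27A1 (0.054) and COL12A1 (0.11) were not. COL3A1 and COL4A2 were called with neither.

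**Figure D1:**
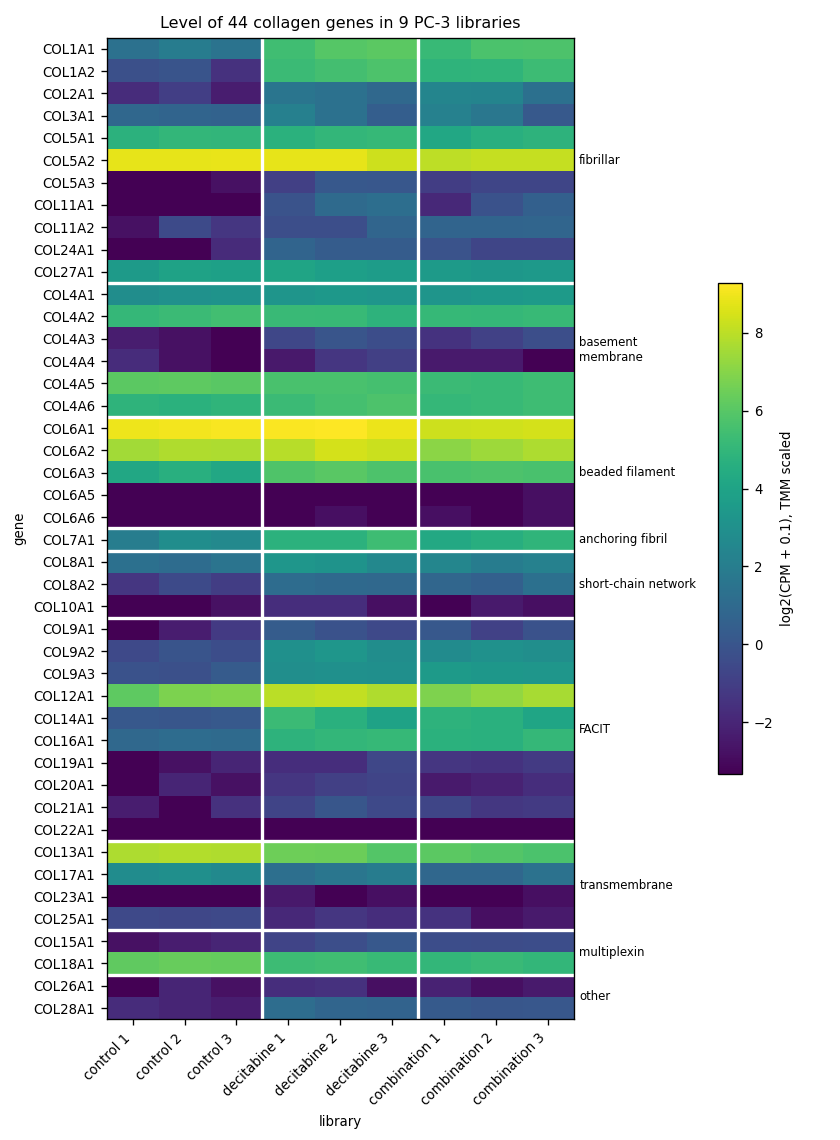
Level of the 44 collagen genes (vertical axis, grouped by class) in the 9 PC-3 libraries (horizontal axis), as colour on a scale of log2(CPM + 0.1) after TMM scaling. COL6A1, COL5A2 and COL6A2 are bright in every library, COL1A1, COL1A2, COL14A1 and COL16A1 brighten in the 6 treated libraries, and COL13A1 and COL18A1 darken there.

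The summed level of the collagen genes gives the weight of each class. It was 1710, 1863 and 1901 CPM in the controls, 2102, 2315 and 1912 CPM under decitabine, and 1299, 1441 and 1565 CPM under the combination treatment. The decitabine libraries lay above all controls by a gap that was narrow for 1 of them, and the combination libraries lay below all controls on this scale. With scaling by library size alone, the means were 1637, 2241 and 1501 CPM for control, decitabine and combination treatment, and the combination libraries, at 1340, 1492 and 1672 CPM, overlapped with the controls, at 1531, 1666 and 1713 CPM. COL6A1 alone made up 29.2% ± 0.6 (SD, n = 3) of the sum in controls and COL5A2 another 24.8% ± 1.4. Transmembrane collagens dropped from 228 ± 9.1 CPM in controls to 81.5 ± 15.9 CPM under decitabine and 62.6 ± 8.0 CPM under the combination treatment. FACIT collagens stood at 106 ± 26.7, 325 ± 35.8 and 225 ± 38.9 CPM in the same order, so that their share of the sum went from 5.76% to 15.4% and 15.6%. The FACIT and transmembrane sums were each mostly 1 gene. COL12A1 gave 71.2, 111 and 120 CPM of the FACIT sum in controls and 254, 276 and 218 CPM under decitabine. It gave 113, 151 and 197 CPM under the combination treatment, where its rise was not called (adjusted p = 0.071). COL13A1 gave 212, 230 and 219 CPM of the transmembrane sum in controls. The other tested genes of both classes moved in the same direction as these genes. The beaded filament class, 758 ± 51.7 CPM in controls, stood at 923 ± 104 CPM under decitabine and 557 ± 58.3 CPM under the combination treatment.

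**Figure D2:**
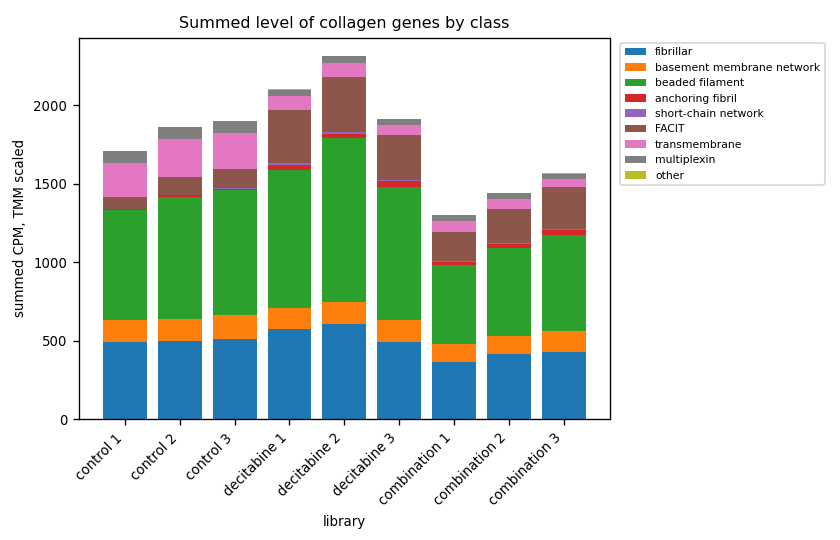
Summed level of the collagen genes in CPM after TMM scaling (vertical axis, from 0) in each of the 9 libraries (horizontal axis), stacked by class. The FACIT band is wider and the transmembrane band narrower in all 6 treated libraries, and the 3 combination libraries have the lowest totals, between 1299 and 1565 CPM.

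Per kilobase of the canonical transcript, which allows genes to be compared, COL6A1 led in all 3 groups with 127 ± 8.8 CPM per kb in controls, 134 ± 16.3 under decitabine and 79.5 ± 4.9 under the combination treatment. In controls it was followed by COL13A1 with 70.0 ± 2.8, COL5A2 with 66.1 ± 1.5 and COL6A2 with 59.7 ± 4.8 CPM per kb. The libraries of COL13A1 and COL5A2 overlapped, those of COL6A2 lay below both, and COL18A1 came next, far below, with 14.4 ± 0.6. The place of COL13A1 depends on the transcript length taken. Per kilobase of the union of all exons, the control means were 96.1 for COL6A1, 61.7 for COL5A2, 38.5 for COL6A2 and 19.1 CPM per kb for COL13A1, which then came after COL6A2. COL1A1 moved from rank 16 of 44 in controls to rank 6 with either treatment. COL16A1 moved from rank 18 to 11 and 12, and COL17A1 from rank 13 to 22 and 25.

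Among the fibrillar collagens, both chains of type I collagen, the main collagen of bone, skin and tendon, rose from a low level. COL1A1 stood at 2.48, 3.80 and 2.67 CPM in controls, at 42.6, 61.6 and 68.5 CPM under decitabine, and at 36.0, 51.6 and 54.2 CPM under the combination treatment. Every treated library was thus far above every control, and the treatments overlapped. The fold change was 19.3 under decitabine (log2 4.27 ± 0.27 SE, adjusted p = 1.2e-06) and 15.8 under the combination treatment (adjusted p = 2e-06). COL1A2 started lower still, with 0.745, 0.850 and 0.247 CPM in controls, and reached 37.8, 45.3 and 53.9 CPM under decitabine and 28.9, 30.5 and 40.3 CPM under the combination treatment. Its controls held 37 counts in all, so it is among the 12 genes that passed through the treated libraries. The log2 fold changes were 6.21 ± 0.29 (adjusted p = 2e-08) and 5.75 ± 0.29 (adjusted p = 3.8e-08).

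The 3 most abundant other fibrillar chains behaved differently. COL5A2, a chain of type V collagen, which sits inside type I fibrils and sets their width, was among the most abundant collagen genes of the control cells. It stood at 451, 442 and 462 CPM in controls, 440, 441 and 313 CPM under decitabine and 258, 290 and 288 CPM under the combination treatment. All combination libraries lay below all others, and 2 of the 3 decitabine libraries lay just under the controls. The log2 fold change was -0.18 ± 0.11 under decitabine (adjusted p = 0.16), with 0.06 when libraries were scaled by size alone, and -0.70 ± 0.11 under the combination treatment (adjusted p = 9e-05). COL5A1, its partner chain, was at 27.3, 32.8 and 31.5 CPM in controls, 26.4, 32.0 and 34.6 CPM under decitabine and 18.6, 24.5 and 27.9 CPM under the combination treatment. The groups overlapped, and the fall of 0.37 on the log2 scale under the combination treatment (adjusted p = 0.036) was lost without control replicate 2 (0.11), control replicate 3 (0.088), combination replicate 1 (0.11) or combination replicate 2 (0.06), and with library size alone (0.42).

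COL27A1, a fibrillar collagen of cartilage, was at 11.4, 14.97 and 13.97 CPM in controls, 16.4, 13.8 and 12.4 CPM under decitabine and 11.6, 9.94 and 10.8 CPM under the combination treatment. The controls overlapped with both treatments, and the combination libraries lay below all decitabine libraries. Its call under the combination treatment (log2 fold change -0.32, adjusted p = 0.046) was lost in 11 of 17 alternatives, among them without control replicate 2 (0.17), control replicate 3 (0.10), decitabine replicate 2 (0.057), combination replicate 2 (0.15) or combination replicate 3 (0.076).

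COL3A1, the partner of type I collagen in soft tissues, was called with neither treatment. Its controls lay between 1.43 and 1.74 CPM, and the treated libraries spread from 1.06 to 4.53 CPM, on both sides of the controls. The log2 fold change was 0.79 under decitabine (95% interval -0.51 to 2.08, adjusted p = 0.25) and 0.87 under the combination treatment (-0.42 to 2.16, adjusted p = 0.20). The remaining 5 fibrillar genes, COL2A1 of cartilage, COL5A3, COL11A1, COL11A2 and COL24A1, had 0 to 19 counts over all 3 controls. All 5 passed only through the treated libraries and were called higher with both treatments. COL2A1 reached 2.39 ± 0.53 CPM under decitabine and 4.18 ± 1.56 CPM under the combination treatment, from 0.233 ± 0.154 CPM. COL11A1 had no count in controls and 119 and 54 counts under decitabine and the combination treatment, which is at least 33.8-fold and at least 15.7-fold higher against a floor of 3 counts over the group. COL5A3 had 1 count in controls and 57 under decitabine, a ratio of 48.5 with an exact 95% interval of 8.36 to 1949. Such bounds and intervals cover counting error only.

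**Figure D3:**
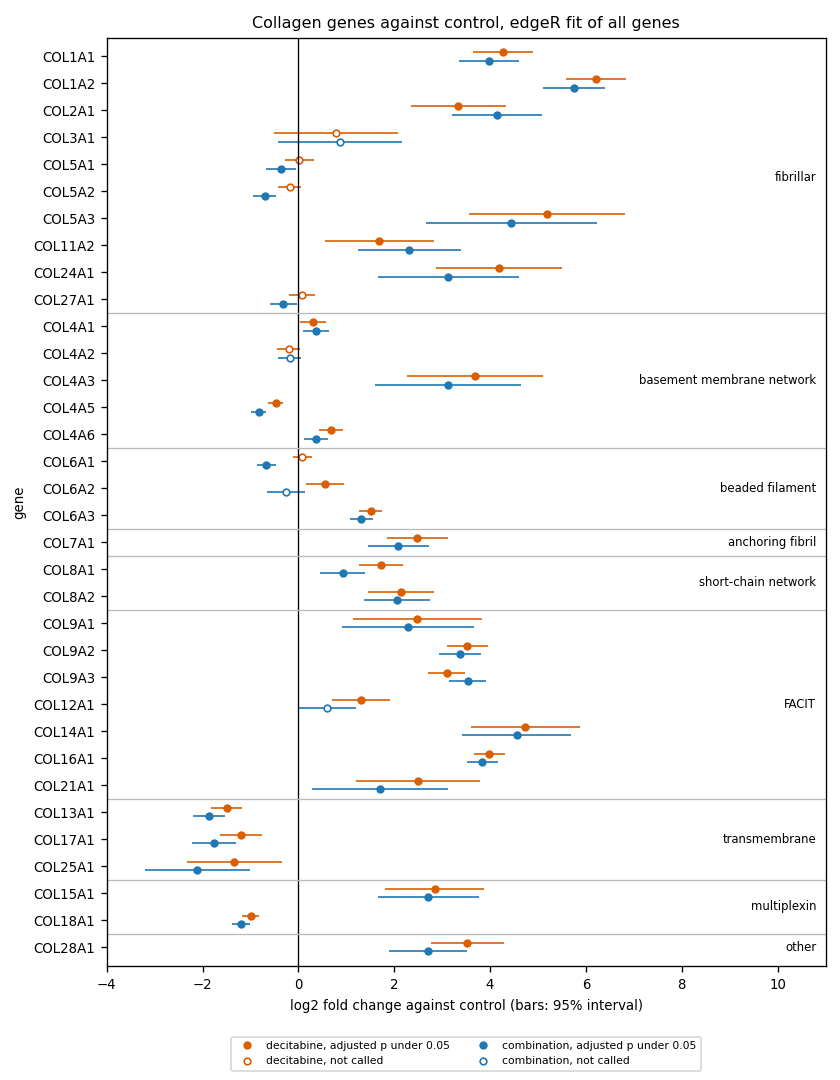
Log2 fold change against control (horizontal axis, bars are 95% intervals of the edgeR fit) for 34 collagen genes (vertical axis, by class), under decitabine in orange and the combination treatment in blue, and filled points where the adjusted p is under 0.05. COL11A1, without a count in controls, is not drawn. All 7 FACIT genes lie right of 0 and all 3 transmembrane genes left of it with both treatments.

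In the basement membrane class, the chains moved apart rather than together. COL4A5 and COL4A6, which join in 1 type of network beneath epithelia, went in opposite directions. COL4A5 stood at 67.5, 70.7 and 66.8 CPM in controls, 49.7, 50.2 and 47.5 CPM under decitabine and 38.1, 35.6 and 41.7 CPM under the combination treatment, so that no 2 groups overlapped. It fell by 0.48 on the log2 scale under decitabine (adjusted p = 5.6e-05) and fell by 0.83 under the combination treatment (adjusted p = 3e-07). COL4A6 stood at 29.5, 26.1 and 30.6 CPM in controls and rose to 38.3, 46.8 and 53.2 CPM under decitabine and 33.8, 35.5 and 41.2 CPM under the combination treatment. Every treated library was above every control, and the treatments overlapped. Its log2 fold changes were 0.68 ± 0.12 (adjusted p = 0.00013) and 0.36 ± 0.12 (adjusted p = 0.014), the latter lost without control replicate 2 (0.076) or combination replicate 3 (0.067). The promoters of both genes are among those printed above. Their canonical starts on chromosome X, 108439838 for COL4A5 and 108438422 for COL4A6, lie 1416 bases apart. The gene models are only 340 bases apart, so another annotated start of COL4A6 lies nearer to COL4A5, and its promoter is not shown.

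COL4A1 and COL4A2, the chains of the common basement membrane network, start 127 bases apart in opposite directions on chromosome 13. COL4A1 stood at 7.20, 8.05 and 8.84 CPM in controls, 9.39, 10.6 and 9.66 CPM under decitabine and 9.27, 10.3 and 11.6 CPM under the combination treatment. No treated library overlapped the controls, but the differences were small. The log2 fold change of 0.30 under decitabine (adjusted p = 0.049) was lost without control replicate 1 (0.18) or 2 (0.11), without decitabine replicate 1 (0.055), 2 (0.17) or 3 (0.067), and without combination replicate 1 (0.050) or 2 (0.071), and also without a filter (0.15), with DESeq2 (0.052) and with voom and limma (0.051). That of 0.37 under the combination treatment (adjusted p = 0.018) was lost without control replicate 1 or combination replicate 3 (0.082 each). COL4A2 was at 33.9, 38.7 and 44.03 CPM in controls, 37.4, 36.0 and 28.2 CPM under decitabine and 34.2, 33.1 and 35.3 CPM under the combination treatment. The groups overlapped, and neither change was called (log2 -0.20 and -0.18, adjusted p = 0.13 and 0.16, turning to 0.05 and 0.04 with library size alone). Without control replicate 1 both were called lower (adjusted p = 0.036 and 0.046). The gene models of the pair overlap by 1346 bases, and whether counting used strand is not given in the sources used here. COL4A3, mainly a kidney and lung chain, had 3 counts in controls and 50 under decitabine, a ratio of 14.2 with an exact 95% interval of 4.58 to 71.1, and its neighbour COL4A4 had 5, 19 and 4 counts per group and was not tested.

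Type VI collagen, a beaded filament of 3 different chains near cell surfaces, held the most abundant collagen transcript of these cells, and its chains also differed. COL6A1 was at 494, 534 and 568 CPM in controls, 581, 619 and 486 CPM under decitabine and 313, 335 and 354 CPM under the combination treatment. Decitabine libraries lay around the controls, and the combination libraries lay below both. The log2 fold change was 0.08 ± 0.09 under decitabine (adjusted p = 0.46) and -0.67 ± 0.09 under the combination treatment (adjusted p = 1.8e-05). With library size alone the former was 0.32 and was called (adjusted p = 0.006). COL6A2 was at 187, 219 and 211 CPM in controls, 244, 357 and 306 CPM under decitabine and 135, 170 and 210 CPM under the combination treatment. The decitabine libraries were all higher than the controls, and the combination libraries reached into the control range. Its rise under decitabine (log2 0.56 ± 0.17, adjusted p = 0.018) was lost without control replicate 1 (0.067), decitabine replicate 2 (0.054) or decitabine replicate 3 (0.059), and its log2 fold change of -0.26 under the combination treatment (adjusted p = 0.21) was called only when combination replicate 3 was left out (0.036), when no filter was used (0.029) or with a replicate block (0.022).

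COL6A3, the largest chain of the type, was far below COL6A1 and COL6A2 in controls and rose with both treatments. It went from 18.5, 24.5 and 18.6 CPM to 55.2, 65.4 and 54.0 CPM under decitabine and 49.8, 53.5 and 49.97 CPM under the combination treatment. Treated and control libraries were well apart. The fold change was 2.84 under decitabine (adjusted p = 3.7e-08) and 2.49 under the combination treatment (adjusted p = 1.4e-07). COL6A5 and COL6A6 had at most 2 counts in any group.

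COL7A1, the anchoring fibril that fastens epithelia to the dermis, was at 3.97, 7.10 and 6.02 CPM in controls, 26.8, 27.2 and 41.6 CPM under decitabine and 19.0, 23.4 and 29.9 CPM under the combination treatment. All treated libraries lay above all controls. It rose 5.59-fold (adjusted p = 4.9e-05) and 4.23-fold (adjusted p = 0.00017). Of the short-chain network collagens, which form hexagonal sheets, COL8A1 went from 2.43, 2.11 and 2.73 CPM to 9.60, 8.70 and 5.75 CPM under decitabine and 5.40, 3.82 and 4.54 CPM under the combination treatment, with no overlap between any groups. The fold changes were 3.31 (adjusted p = 5.4e-06) and 1.90 (adjusted p = 0.0018). Its partner COL8A2, with 26 counts in controls, passed through the treated libraries and was called higher with both (4.40-fold and 4.15-fold). COL10A1 of growth plate cartilage had 1, 11 and 3 counts per group and was not tested.

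All 7 tested FACIT genes were called higher under decitabine, of which 5 had enough counts in controls and 2 did not. Of all genes tested 36.3% were called higher, and 26.2% of those with enough counts in controls. Under the combination treatment 6 of the 7 were called higher, 4 of them among the 5, beside 35.9% and 26.5%. COL12A1, which decorates type I fibrils and is the most abundant of the class here, stood at 71.2, 111 and 120 CPM in controls, 254, 276 and 218 CPM under decitabine and 113, 151 and 197 CPM under the combination treatment. The decitabine libraries were all above the controls, while 1 combination library lay within their range. The log2 fold change was 1.30 ± 0.26 under decitabine (adjusted p = 0.0028) and 0.61 ± 0.26 under the combination treatment (adjusted p = 0.071), where it was called without combination replicate 1 (0.026), with voom and limma (0.02), with DESeq2 (0.034) and with library size alone (0.026). COL16A1, which bridges cells and matrix, went from 1.84, 2.10 and 1.97 CPM to 27.8, 31.8 and 34.4 CPM under decitabine and 26.5, 25.1 and 33.2 CPM under the combination treatment. Its groups were tight, and it had the lowest adjusted p-values of the collagen genes, 5.2e-11 (15.9-fold) and 8.1e-11 (14.3-fold). COL14A1, another collagen of fibril surfaces, went from 0.993, 0.951 and 1.04 CPM to 38.7, 25.4 and 15.5 CPM under decitabine and 28.4, 25.3 and 16.7 CPM under the combination treatment. Every treated library was at least an order of magnitude above the controls, with a wide spread among themselves (26.5-fold, adjusted p = 6.7e-05, and 23.5-fold, adjusted p = 9.1e-05).

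Type IX collagen, which coats type II fibrils in cartilage, rose too in the chains COL9A2 and COL9A3. COL9A2 went from 0.596, 0.850 and 0.691 CPM to 7.99, 9.58 and 7.24 CPM under decitabine and 6.62, 8.18 and 7.497 CPM under the combination treatment. COL9A3 went from 0.794, 0.750 and 1.14 CPM to 7.44, 8.01 and 7.58 CPM and to 11.6, 10.03 and 9.58 CPM. Both were clear of the controls, and COL9A3 was above every decitabine library in every combination library. The fold changes were 11.5 and 10.4 for COL9A2 (adjusted p = 3.3e-09 and 5.4e-09) and 8.54 and 11.6 for COL9A3 (adjusted p = 4.2e-09 and 1e-09). COL9A1 and COL21A1, with 9 and 7 counts in controls, passed through the treated libraries and were called higher with both. COL19A1 and COL20A1, with 4 counts each in controls, were not tested, and COL22A1 had no count in any library.

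Transmembrane collagens ran the other way, with 3 of 3 tested genes called lower with each treatment, beside 40.9% and 39.3% of all genes with enough counts in controls. COL13A1, a collagen of cell-matrix junctions, was among the 4 most abundant collagen genes per kilobase in controls with either transcript length. It stood at 212, 230 and 219 CPM in controls, 89.2, 86.2 and 59.1 CPM under decitabine and 68.8, 60.4 and 52.1 CPM under the combination treatment. Controls were far above all treated libraries. It fell 2.82-fold under decitabine (log2 -1.49 ± 0.15, adjusted p = 6.3e-06) and 3.64-fold under the combination treatment (log2 -1.87 ± 0.15, adjusted p = 1.3e-06). COL17A1, a hemidesmosome component that ties basal epithelial cells to the basement membrane, went from 6.85, 7.65 and 6.27 CPM to 2.33, 2.95 and 3.77 CPM and to 1.74, 1.76 and 2.60 CPM. The groups did not overlap with the controls (2.29-fold lower, adjusted p = 0.00011, and 3.40-fold lower, adjusted p = 4.8e-06). COL25A1, with 35, 16 and 9 counts per group, was also called lower with both (adjusted p = 0.018 and 0.0022), and COL23A1 had at most 3 counts per group.

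Both multiplexins were tested and parted in direction. COL18A1, whose C-terminal piece is endostatin, stood at 74.5, 80.8 and 78.9 CPM in controls, 40.3, 41.8 and 35.3 CPM under decitabine and 32.4, 37.6 and 32.3 CPM under the combination treatment. All treated libraries lay at about the same level, well under the controls, with a 1.99-fold fall (adjusted p = 1.7e-07) and a 2.29-fold fall (adjusted p = 3.3e-08). COL15A1, with 6 counts in controls and 53 and 47 with the treatments, and COL28A1, a collagen of peripheral nerve, passed only through the treated libraries. COL15A1 was called higher with both. COL28A1 had 9 counts in controls and was at 0.199, 0.150 and 0.0987 CPM there, at 2.17, 1.65 and 1.53 CPM under decitabine and at 1.10, 0.932 and 0.984 CPM under the combination treatment. It was called higher with both (adjusted p = 7.5e-07 and 2.2e-05), and COL26A1, with 4, 12 and 6 counts per group, was not tested. In all, the 9 collagen genes that were not tested had 0 to 13 counts per library.

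Setting the treatments against each other asked whether SAM beside decitabine shifted the collagen genes. The combination treatment had 6 collagen genes called lower than decitabine and 1 called higher, beside 8.02% and 7.67% of all genes tested. Without overlap between groups, 10 lay lower and 1 higher, beside 16.8% and 17.2%. COL6A1 was 1.68-fold lower (log2 -0.75 ± 0.09, adjusted p = 0.00043), a call that held under all 17 alternatives. COL6A2 was 1.76-fold lower (adjusted p = 0.016, and 0.068 without combination replicate 2). COL5A2 was 1.43-fold lower (adjusted p = 0.0092, and 0.055 without decitabine replicate 2), and COL4A5 was 1.28-fold lower (adjusted p = 0.0082, and 0.062 without combination replicate 2). These 4 belong to the 7 collagen genes whose control mean reached 1000 counts.

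COL8A1 and COL28A1, the other members called lower than under decitabine, remained above control with both treatments. COL8A1 was 1.74-fold lower (adjusted p = 0.015), with an adjusted p of 0.062, 0.074 and 0.089 without decitabine replicate 1, decitabine replicate 2 and combination replicate 2. COL28A1 was 1.78-fold lower (adjusted p = 0.039), and its call was lost without control replicate 2 (0.055), decitabine replicate 1 (0.15) or 2 (0.095), or combination replicate 1 (0.084), 2 (0.15) or 3 (0.063), as well as with DESeq2 (0.10). COL9A3, the 1 member called higher, was 1.35-fold higher (adjusted p = 0.043). This call was lost without control replicate 2 (0.056), decitabine replicate 1 (0.11), 2 (0.11) or 3 (0.077), or combination replicate 1 (0.18) or 2 (0.12).

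The count of 6 lower was itself sensitive to single libraries, with 3 when decitabine replicate 2 was left out, 2 without combination replicate 2 and 10 without combination replicate 3. With the replicate number as a block, 13 were lower and 2 higher, COL1A1 among those lower (adjusted p = 0.039). In the main fit, the log2 fold change was below 0 for 29 of the 35 tested collagen genes, with a median of -0.37, beside 0.00214 over all genes tested. For COL1A1, the 95% interval of the difference between treatments was -0.76 to 0.19 on the log2 scale, and for COL16A1 it was -0.39 to 0.09, and neither difference was called (adjusted p = 0.39 each). COL12A1, 1.62-fold lower without overlap, was not called (adjusted p = 0.11), and it was called without control replicate 1 (0.048) or combination replicate 3 (0.042), with DESeq2 (0.043) and with voom and limma (0.031).

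**Figure D4:**
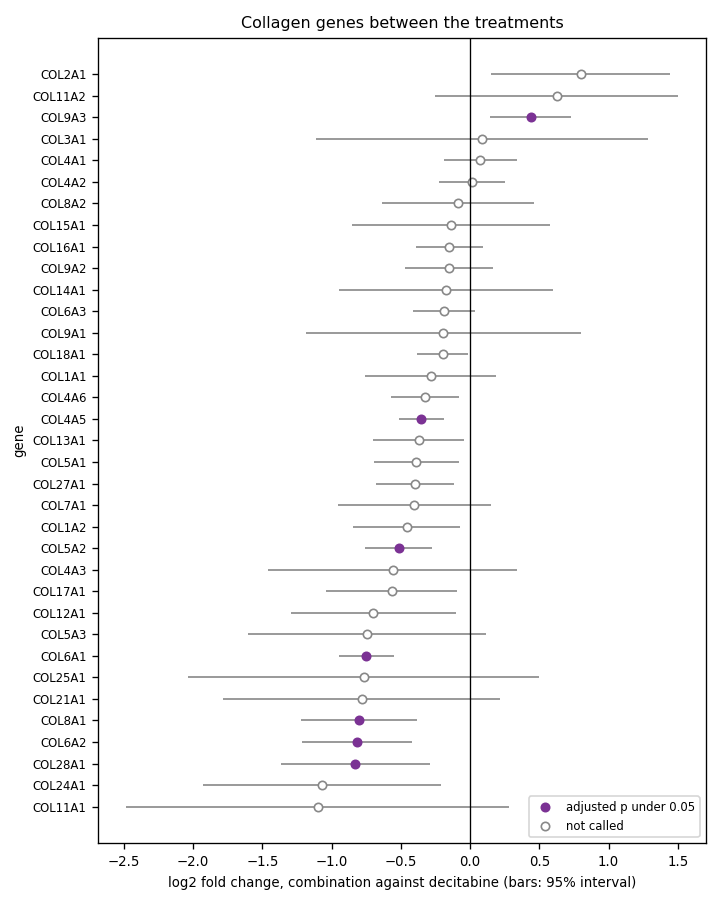
Log2 fold change of the combination treatment against decitabine (horizontal axis, bars are 95% intervals of the edgeR fit) for the 35 tested collagen genes (vertical axis, sorted by value), filled where the adjusted p is under 0.05. Most points lie left of 0, and the 6 filled points there are COL28A1, COL6A2, COL8A1, COL6A1, COL5A2 and COL4A5, with COL9A3 filled on the right.

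Ratios within a library do not depend on its scaling, so partner chains were compared as the ratio of their levels per kilobase of canonical transcript. COL6A3 to COL6A1 was 0.0149, 0.0183 and 0.0131 in controls, 0.0379, 0.0422 and 0.0444 under decitabine and 0.0635, 0.0638 and 0.0563 under the combination treatment, and no groups overlapped. COL4A5 to COL4A6 was 2.34, 2.77 and 2.24 in controls, 1.33, 1.10 and 0.914 under decitabine and 1.15, 1.03 and 1.04 under the combination treatment. The controls held more COL4A5 than COL4A6 by this measure, and the treated libraries about as much of each. COL1A1 to COL1A2 was 5.32 ± 3.45 in controls, resting on 37 counts of COL1A2, 1.07 ± 0.10 under decitabine and 1.22 ± 0.20 under the combination treatment. Type I collagen is commonly assembled from more COL1A1 than COL1A2 protein, which mRNA levels alone do not show.

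COL4A1 to COL4A2 was 0.204 ± 0.006 in controls, 0.292 ± 0.045 under decitabine and 0.299 ± 0.029 under the combination treatment. COL6A1 to COL6A2 was 2.12 ± 0.11, 1.56 ± 0.34 and 1.63 ± 0.26 in the same order. COL5A1 to COL5A2, at 0.055 ± 0.006, 0.065 ± 0.021 and 0.068 ± 0.010, overlapped in all comparisons. Over the 8 pairs and 3 comparisons, 24 exact two-sided permutation tests of 3 against 3 libraries were made, which cannot go below p = 0.1. Of these, 13 reached it, with a Benjamini-Hochberg adjusted p of 0.1846, so none passed the threshold. The ratios rest on the length of 1 transcript per gene, which sets their level but not their order between groups.

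**Figure D5:**
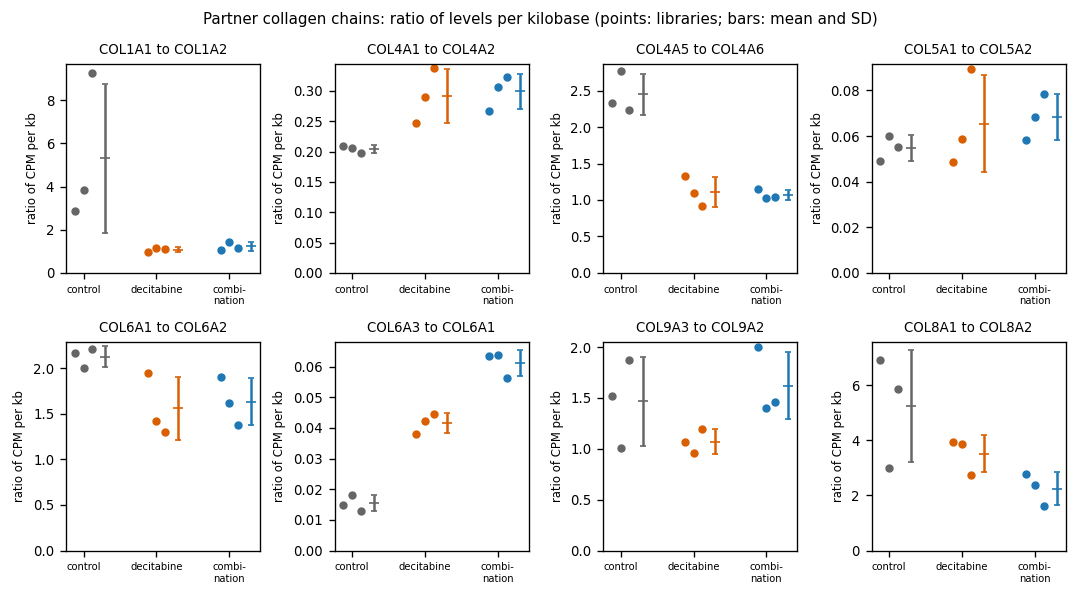
Ratio of CPM per kilobase of partner collagen chains (vertical axes, from 0) in control, decitabine and combination libraries (horizontal axes), 1 panel for each of 8 pairs, with points for the 3 libraries of a group and bars for mean and SD. COL6A3 to COL6A1 rises in steps from control to decitabine to combination treatment, and COL4A5 to COL4A6 drops from 2.24 to 2.77 in controls to 0.914 to 1.33 in treated libraries.

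A list of 57 genes that build, export, cleave, crosslink or bind collagen gave 47 tested genes, with 24 called higher and 9 lower under decitabine (36.3% and 32.5% of all genes tested) and 22 higher and 9 lower under the combination treatment (35.9% and 31.3%). Of the 47, 6 passed only through the treated libraries, and all 6 are among those called higher with each treatment. Among the 41 with enough counts in controls, 18 were higher and 9 lower under decitabine, beside 26.2% and 40.9% of all such genes, and 16 higher and 9 lower under the combination treatment, beside 26.5% and 39.3%. The counts of the smaller groups are to be read against these shares. With library size alone, the splits over all 47 were 32 to 5 and 28 to 6, beside 24 to 9 and 22 to 9 in the main fit. Among the 18 modifying and folding factors of 19 with enough counts in controls, 9 were higher and 5 lower under decitabine, and 8 and 5 under the combination treatment. SERPINH1, the collagen chaperone HSP47, rose from 36.4 ± 2.9 CPM to 98.5 ± 2.1 and 111 ± 12.7 CPM (adjusted p = 6.9e-09 and 2.5e-09). P3H2, a prolyl 3-hydroxylase, rose from 6.66 ± 1.31 to 64.4 ± 13.7 and 83.3 ± 10.1 CPM, and PLOD2, a lysyl hydroxylase, from 70.1 ± 4.3 to 159 ± 21.4 and 137 ± 24.6 CPM. CRTAP and PPIB, which act together in a prolyl 3-hydroxylation complex, fell by 1.02 and 1.25 on the log2 scale under decitabine and by 0.91 and 1.02 under the combination treatment, while the enzyme of that complex, P3H1, stood at 55.5 ± 1.9, 64.2 ± 3.6 and 59.0 ± 2.4 CPM.

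Of the 7 export factors, 1 was higher and 2 lower under decitabine, and 0 and 2 under the combination treatment. Of the 5 propeptide cleavage genes with enough counts in controls, 1 was higher and 2 lower under decitabine, and 2 and 1 under the combination treatment. TLL1, a procollagen C-proteinase of the tolloid family, fell from 21.8 ± 1.9 to 9.37 ± 2.08 and 10.7 ± 1.5 CPM. Of the 5 crosslinking lysyl oxidases, LOXL3 and LOXL4 passed only through the treated libraries, and among the other 3 there were 2 higher and 0 lower under decitabine, and 1 higher and 1 lower under the combination treatment. LOX rose from 6.36 ± 1.51 to 20.1 ± 1.9 and 15.5 ± 4.3 CPM. LOXL4 went from 0.133 ± 0.029 CPM in controls to 43.1 ± 6.1 CPM under decitabine and 16.5 ± 7.2 CPM under the combination treatment, and the treatments differed (log2 -1.39, adjusted p = 0.013). LOXL2 was called in opposite directions, at 50.9 ± 4.3, 71.0 ± 5.8 and 40.2 ± 7.5 CPM (log2 0.48 under decitabine, adjusted p = 0.0022, and -0.34 under the combination treatment, adjusted p = 0.019), and was named after its values were seen.

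All 3 tested fibril-binding proteoglycans of 8 were higher with both treatments, 1 of them with enough counts in controls. That gene was BGN, biglycan, which rose from 0.960 ± 0.102 to 17.3 ± 3.8 and 17.8 ± 3.2 CPM, and LUM, lumican, stood at 0.116 ± 0.029, 6.74 ± 0.74 and 5.28 ± 0.18 CPM. Of 7 tested collagen receptors, 4 were higher and 0 lower with each treatment, all 7 having enough counts in controls. DDR1, a receptor tyrosine kinase that binds collagen, rose from 32.4 ± 0.7 to 66.9 ± 6.4 and 83.3 ± 3.8 CPM, MRC2, which takes collagen up into cells, from 8.71 ± 0.76 to 29.1 ± 4.3 and 29.9 ± 4.6 CPM, and ITGA1, an integrin chain, from 7.33 ± 0.45 to 18.6 ± 2.2 and 11.96 ± 1.8 CPM. ITGB1, the integrin chain that pairs with it, stood at 1456 ± 47.7, 1479 ± 58.1 and 1452 ± 43.0 CPM. Between the treatments, 4 of the 47 were called higher and 5 lower under the combination treatment, beside 7.67% and 8.02% of all genes tested. Single libraries moved these counts, to 1 and 4, 0 and 3, and 2 and 4 when decitabine replicates 1, 2 and 3 were left out in turn, to 1 and 4 or 0 and 2 when combination replicate 1 or 2 was left out, and to 3 and 3 when control replicate 2 was.

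The 7 epithelial markers, KRT8, KRT18, KRT19, EPCAM, CDH1, CLDN4 and CLDN7, were all present, with a summed level of 1241 to 1376 CPM in controls, 1060 to 1091 CPM under decitabine and 888 to 1033 CPM under the combination treatment. Of these, 3 were called higher and 3 lower with each treatment. The 8 fibroblast markers summed to 19.5 to 24.6, 33.4 to 35.7 and 36.8 to 40.3 CPM, mostly TWIST1, and of 5 tested, PDGFRA, DCN and LUM were called higher with each treatment, of which DCN and LUM passed only through the treated libraries. Among them FAP, TCF21 and DPT were at 0 in all controls, and DPT in every library. The 5 endothelial markers summed to 26.2 to 28.6, 43.2 to 62.5 and 52.2 to 60.7 CPM, and of 4 tested, PECAM1, VWF and TEK were called higher with each treatment. The 4 leukocyte markers, PTPRC, CD3E, CD14 and LYZ, summed to 0.397 to 0.502, 1.52 to 2.07 and 1.28 to 1.96 CPM, with CD3E at 0 in controls. The 2 tested, PTPRC and CD14, were called higher with each treatment. VWF, TEK, PTPRC and CD14 passed only through the treated libraries. Of all genes tested, 36.3% were called higher and 32.5% lower under decitabine, and 35.9% and 31.3% under the combination treatment. The part of these shifts in the collagen results was not tested.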

How the data were processed

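RNA-seq libraries of PC-3 cells, 3 per group, were grouped by the conditions in the sample labels, with doses and vehicle from the study's methods and 5 days from the labels. Per Ensembl gene, the files give deposited estimated counts, which the authors made by trimming reads (Trim Galore 0.6.4 in the submitters' processing notes) and quantifying them with kallisto against GRCh38.p13. They are not normalized. The annotation release is not given in the sources used here. Deposited log2 CPM files were not used.

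Counts were rounded to whole numbers, and 60357 of 60617 identifiers were matched to GENCODE release 44. The quasi-likelihood test of edgeR 4.0.16 (R 4.3.3) was run on genes passing filterByExpr (TMM scaling, robust dispersion, 1 mean per group over 9 libraries, common dispersion 0.00977). This fit was tested on simulated data with 200 changed genes. Benjamini-Hochberg adjustment covered all genes tested. Levels per kilobase used the canonical transcript. No 2 libraries of a group were copies, since a chi-square statistic over genes was 6.40 to 26.1 per degree of freedom.

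Values in every library are given for collagen genes that averaged 100 counts or more in any group or a call between the treatments. Of the pathway lists, genes with an adjusted p under 0.05, an absolute log2 fold change over 1 against control and at least 100 counts were named, and P3H1, ITGB1 and LOXL2 were added after their values were seen. The collagen genes and all lists were chosen with earlier results of these data known, and 1 leukocyte marker is not reported here.

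Alternatives were DESeq2's size factors, library size alone, omitting the filter, a minimum mean of 10 counts, DESeq2 1.42.0, voom with limma 3.58.1, a replicate block, fitting the 6 libraries compared alone, a log2 fold change over 1, exon-union lengths and leaving out each library. Promoter windows came from RefSeq. Tables and figures were made in Python 3.11.15 (scipy 1.17.1, matplotlib 3.10.9, pandas 2.3.3).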

Additional observations from a re-analysis of the deposited data

Results flagged for a closer look

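Transcripts whose symbols extend a collagen symbol were outside the collagen genes, and 3 of them had counts in every decitabine library above all controls. COL18A1-AS1, an antisense transcript of the COL18A1 locus on chromosome 21, had 26 counts over the decitabine libraries (14, 6 and 6), 7, 7 and 1 with the combination treatment and 0 in controls. COL6A2-DT, a divergent transcript beside COL6A2, had 14 counts with decitabine (4, 5 and 5), 10 with the combination treatment and 2 in controls. COL6A4P1, a pseudogene of the type VI family on chromosome 3, had 20 counts with decitabine (6, 5 and 9), 21 with the combination treatment and 4 in controls. None of the 3 had enough counts to be tested, and whether counting used strand is not given in the sources used here. The other 7 such transcripts had at most 1 count in any group.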

How the results depend on the processing

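Of 1173 alternative values for 69 results on 23 collagen genes, 1061 kept direction and side of the threshold. Of the others, 42 newly passed it, 54 no longer passed it and 16 changed sign. These 23 are the genes whose values are given in every library, not the 23 with enough counts in controls. They include COL1A2 and COL28A1, which passed only through the treated libraries. They leave out COL3A1 and COL25A1, which had enough counts in controls. Requiring a log2 fold change over 1 left 3 collagen genes lower under decitabine, 4 lower under the combination treatment and 0 higher and 0 lower between the treatments, and for the pathway genes 14 higher and 3 lower, 12 higher and 2 lower, and 1 higher and 1 lower. Between the treatments, the 1 higher and 6 lower collagen genes became 2 and 12 without a filter, 0 higher with library size alone and 10 lower with DESeq2. The pathway genes between the treatments became 7 higher without a filter and 3 lower with only the 6 libraries compared, and those lower under decitabine 5 with library size alone. Leaving out each library gave 0 to 2 higher and 2 to 10 lower collagen genes between the treatments, and 0 to 6 higher and 2 to 6 lower pathway genes.

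Same-numbered libraries correlated between -0.017 and 0.069 with the controls, beside -0.079 to 0.058 for libraries of different number. Between the treatments they correlated between 0.036 and 0.233, all above the -0.220 to 0.014 of libraries of different number. The main fit did not take the numbers as pairs, so it leaves out any pairing between the treatments. With the replicate number as a block, 2 collagen genes were higher and 13 lower between the treatments, COL1A1 among the latter (adjusted p = 0.039).

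Changes of sign were small. COL5A1 under decitabine was -0.0197 without a filter, and leaving out single libraries gave -0.067 to 0.119 for it, -0.0427 to 0.163 for COL27A1 and -0.0013 to 0.171 for COL6A1. COL5A2 under decitabine was 0.0625 with library size alone, where COL4A2 was 0.0456 under decitabine, 0.0368 under the combination treatment and -0.0088 between the treatments. Between the treatments, leaving out single libraries gave -0.102 to 0.0917 for COL4A2, -0.0123 to 0.145 for COL4A1 and -0.45 to 0.202 for COL14A1. The libraries that turned the sign were control replicate 1, decitabine replicates 1, 2 and 3 and combination replicate 3. The cause was not tested. Library size alone moved the median over all tested genes from 0.03 to 0.28 under decitabine and from 0.05 to 0.27 under the combination treatment, so changes near these sizes depend on the scaling. The depth limits the 9 untested collagen genes and those with under 10 counts in controls.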
